A study of Homo sapiens with 12 samples.

Results

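The interferon regulatory factor (IRF) genes examined here were IRF1, IRF2, IRF3, IRF4, IRF5, IRF7, IRF8 and IRF9, and KDM2B binding at each was read from the peaks that overlapped a fixed hg19 window around the gene. The 8 windows covered 245 kb in all and held 56 of the 79473 peaks in the lists of 7 human leukaemia cell lines, in 22 of 29071 merged regions. A merged region joins the peaks of all lists that share at least 1 bp. KDM2B is a histone demethylase with a CXXC zinc finger that binds unmethylated CpG-rich DNA, and it brings a variant Polycomb complex to such sites. Chromatin immunoprecipitation and sequencing (ChIP-seq) with an anti-KDM2B antibody gave 1 library and 1 peak list per line, from cells grown in IMDM with fetal bovine serum. K562 is a myeloid-erythroid line from blast-phase chronic myeloid leukaemia, and REH and SUP-B15 are precursor B-cell acute lymphoblastic leukaemia (B-ALL) lines. The T-cell lines (T-ALL) are SIL-ALL, JURKAT, HPB-ALL and DND41. These lineages are background knowledge of the named lines. K562 and SUP-B15 carry the BCR-ABL1 fusion and REH carries ETV6-RUNX1, so a B-ALL difference here rests on a pair of lines with different drivers. The genes were chosen by their peaks in these lists, with the strong IRF4 peaks of the B-ALL lines in view, and no line had a second library. The values are therefore descriptions with no test, and a site of 1 line cannot be told apart from a site of 1 library.

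IRF proteins are transcription factors that share a tryptophan-rich DNA-binding domain and bind interferon-response sequences built from GAAA repeats. IRF1 activates and IRF2 mostly opposes interferon-response genes, IRF3 and IRF7 switch on the type I interferon genes, and IRF9 joins STAT proteins in the complex that carries the interferon signal to the nucleus. IRF4 and IRF8 are the lymphoid and myeloid members: they pair with the ETS factor PU.1, act together in the step from pre-B to immature B cells, and IRF4 later directs plasma cell formation. IRF5 acts downstream of Toll-like receptors in B cells and macrophages.

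IRF4 was bound by KDM2B near its start in both B-ALL lines and had no peak in the other 5 lines, IRF1 was bound in all 7 lines, and IRF9 in none. Promoter sequences of these 3 genes are shown, and no other member had a promoter entry that started at its first base. They are RefSeq sequences of GRCh38.p14, from 250 bases before to 50 bases after the annotated start, read 5′ to 3′ in the direction of the gene, with every CG dinucleotide in capitals. In each of them the annotated start is the first base of the gene.
IRF4: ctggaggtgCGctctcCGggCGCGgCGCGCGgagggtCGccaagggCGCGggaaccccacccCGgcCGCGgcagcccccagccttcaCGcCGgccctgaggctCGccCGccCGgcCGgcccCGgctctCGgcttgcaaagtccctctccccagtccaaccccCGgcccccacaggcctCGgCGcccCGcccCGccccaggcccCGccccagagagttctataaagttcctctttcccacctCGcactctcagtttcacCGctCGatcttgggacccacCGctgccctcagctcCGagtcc
IRF1: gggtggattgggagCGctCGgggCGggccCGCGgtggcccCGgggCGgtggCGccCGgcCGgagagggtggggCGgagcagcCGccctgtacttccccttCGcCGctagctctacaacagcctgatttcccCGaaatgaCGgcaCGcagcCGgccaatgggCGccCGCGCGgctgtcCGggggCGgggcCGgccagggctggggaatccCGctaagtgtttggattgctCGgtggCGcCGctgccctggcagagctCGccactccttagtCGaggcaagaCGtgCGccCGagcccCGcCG
IRF9: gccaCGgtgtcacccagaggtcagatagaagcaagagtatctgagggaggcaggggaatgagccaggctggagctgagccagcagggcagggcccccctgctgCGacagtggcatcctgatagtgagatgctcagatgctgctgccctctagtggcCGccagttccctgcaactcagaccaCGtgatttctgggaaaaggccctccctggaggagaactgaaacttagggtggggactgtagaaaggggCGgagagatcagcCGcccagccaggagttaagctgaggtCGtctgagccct
The IRF4 promoter held 32 CG dinucleotides and the IRF1 promoter 36, against 7 in that of IRF9 and a median of 14 over the 35116 promoters of the same table. Observed over expected CpG, the CG count set against what the C and G content alone would give, was 0.841 for IRF4, 0.890 for IRF1 and 0.265 for IRF9, beside a median of 0.579. Thus 72.9% of all promoters were at or below IRF4 on this scale, 79.3% at or below IRF1 and 28.9% at or below IRF9. Of these 3 genes, those with the CpG-rich promoters had peaks and the one with the CpG-poor promoter had none, whereas IRF4 and IRF1, with similar CpG content, had peaks in different sets of lines.

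The promoter table also had 4 starts of IRF5 and 2 of IRF8, all inside the gene. For IRF5 they lay from 895 to 4236 bases after the gene's first base, and observed over expected CpG ran from 0.188, at the start farthest in, to 0.785. For IRF8 they lay 3668 and 3853 bases after it, with 0.130 and 0.403. With equal flanks the first base of IRF8 would lie 4.78 kb from the 5′ edge of its window, close to the IRF8 peaks at 4.06 to 4.95 kb, so the IRF8 sequences of the table lie further in and are not shown. The other members are IRF2, IRF3 and IRF7. In all, 5 of 8 members matched the table with 9 entries.

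**Figure D1:**
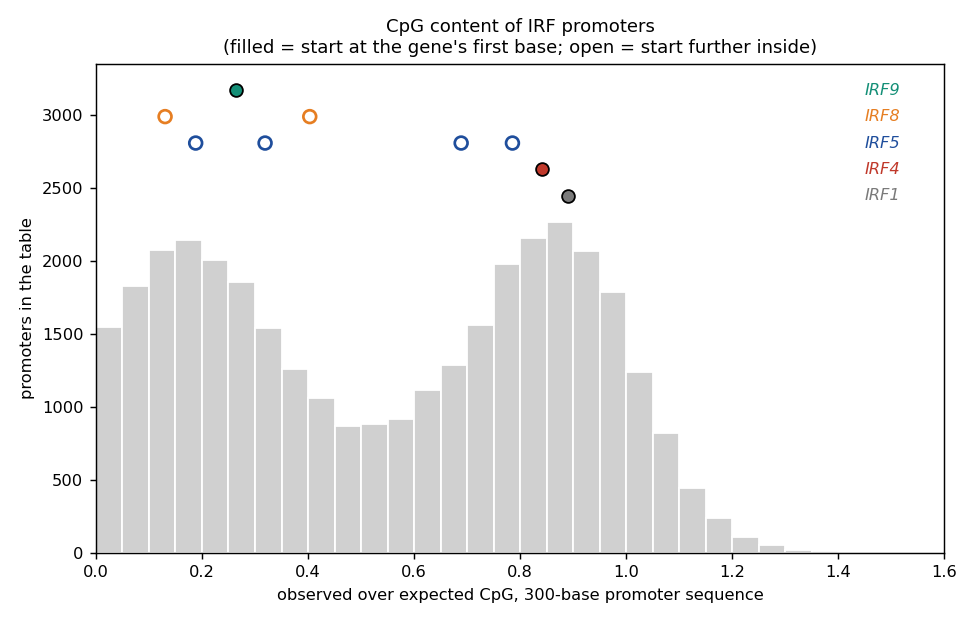
Observed over expected CpG (horizontal axis) of all 35116 promoter sequences as grey bars, with the IRF entries as circles above them; the height of the circles carries no value. IRF1 and IRF4 fall in the CpG-rich mode of the distribution and IRF9 in the CpG-poor mode, while IRF5 has starts in both.

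Motifs of the IRF pathway were searched in the same 300-base sequences on both strands. The interferon-response core, a pair of GAAA repeats with 2 bases of any kind between them, had no match in any of the 9 entries, and 3.57% of all promoters had one. The ETS-IRF composite, GGAA and then GAAA after 2 bases of any kind, is the pairing site of PU.1 with IRF4 or IRF8. It matched once, in the IRF5 entry whose start lies 3638 bases into the gene (2.82% of all promoters). The STAT-type palindrome TTCNNNGAA matched once in IRF1 and once in IRF9 (7.66% of all promoters). Each of these matches lay in a different entry.

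The members differed in the lines that bound them, from all 7 lines at IRF1 to none at IRF9. Of the 56 pairs of a window and a line, 26 had a peak. SUP-B15 had a peak in 6 of the 8 windows, REH in 5, DND41 and JURKAT in 4 each, HPB-ALL and SIL-ALL in 3 each, and K562 in 1. SUP-B15 also had the most windows with every alternative score limit and with equal lists, the 5942 top-scored peaks of each line. REH did not keep its place: it had 3 windows with a common score floor, the highest lowest score of the 7 lists (80.03), where JURKAT and DND41 had 4 each, and 3 against 4 in JURKAT when the upper 50% of each list by score was kept. Of all merged regions, which are not gene windows, 22.2% had a peak in REH and 20.6% in SUP-B15, against 39.2% in SIL-ALL, 36.9% in JURKAT, 32.8% in HPB-ALL and 35.1% in DND41, and 17.8% in K562. The lists held 5942 peaks (K562) to 15304 (SIL-ALL), and the lowest score listed was 80 in SIL-ALL and HPB-ALL, 60 in DND41 and 50 in the other lists. A peak with a score of 50 to 60 could therefore be listed in K562, JURKAT, REH or SUP-B15 alone. The depth of the libraries is unknown.

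**Figure D2:**
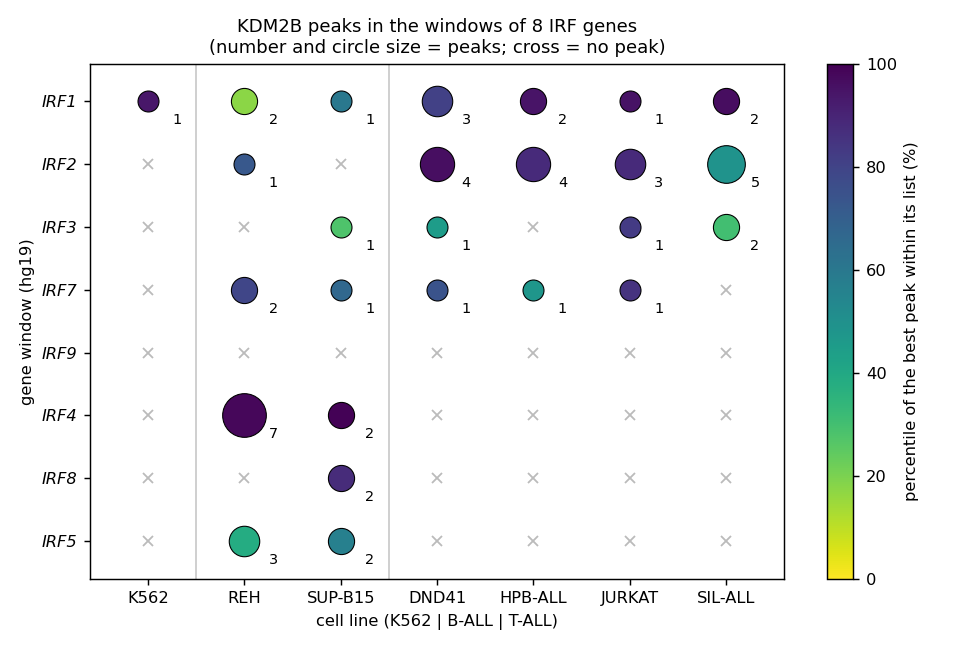
Peaks in the 8 windows (rows) of the 7 lines (columns); the number and the circle size give the peaks, the colour the percentile of the best peak within its list, and a cross marks no peak. IRF4 and IRF5 are filled in the B-ALL columns alone, IRF1 in every column and IRF9 in none.

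The IRF4 window (chromosome 6, 387001 to 416000) held 7 peaks of REH and 2 of SUP-B15. In SUP-B15 the main peak ran from 391584 to 393675, was 2092 bp wide and had an authors' score of 698.33, rank 44 of the 7533 peaks in its list by score and rank 53 by width. The second SUP-B15 peak followed after a few bases, from 393685 to 394306, with a score of 161.3. REH had 7 peaks between 391241 and 394111, of which 6 lay within the stretch of the SUP-B15 peaks and 1 before it. The highest (392717 to 393335; 619 bp) had a score of 271.94, rank 156 of 8146. Its neighbour at 393381 to 393849 had a score of 222.38 and rank 262. The other 5 REH peaks scored from 54.68 to 133.67, where the list median was 67.4. The site was thus among the highest of its list in both lines: percentile 98.1 in REH and 99.4 in SUP-B15, the percentile being the percentage of a list's peaks with a score at or below that of the peak. Scores of different lists share no stated scale, so 272 and 698 do not compare the strength of binding in the lines.

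The peaks of the B-ALL lists overlapped at IRF4 but differed in width. REH peaks covered 2090 bp there and SUP-B15 peaks 2714 bp, and 1875 bp were in both, which is 89.7% of the REH bases and 69.1% of the SUP-B15 bases. No single REH peak met 50% reciprocal overlap with the main SUP-B15 peak, so that requirement left SUP-B15 alone at IRF4. Read in the direction of the gene, the peaks lay between 4.24 and 7.31 kb from the 5′ edge of the window. With equal flanks the first base of IRF4 would lie 4.65 kb from that edge. That point falls inside the main SUP-B15 peak and between REH peaks at 4.24 to 4.445 kb and 4.807 to 5.025 kb. However, the windows end on whole kilobases and their flanks need not be equal. Whether the first base lay under a peak therefore cannot be told. The highest REH peak began 5.72 kb in, within the span of the main SUP-B15 peak. A run of 7 peaks with gaps of at most 500 bp was rare in REH: 17 of its 6015 runs (0.283%) had as many or more.

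**Figure D3:**
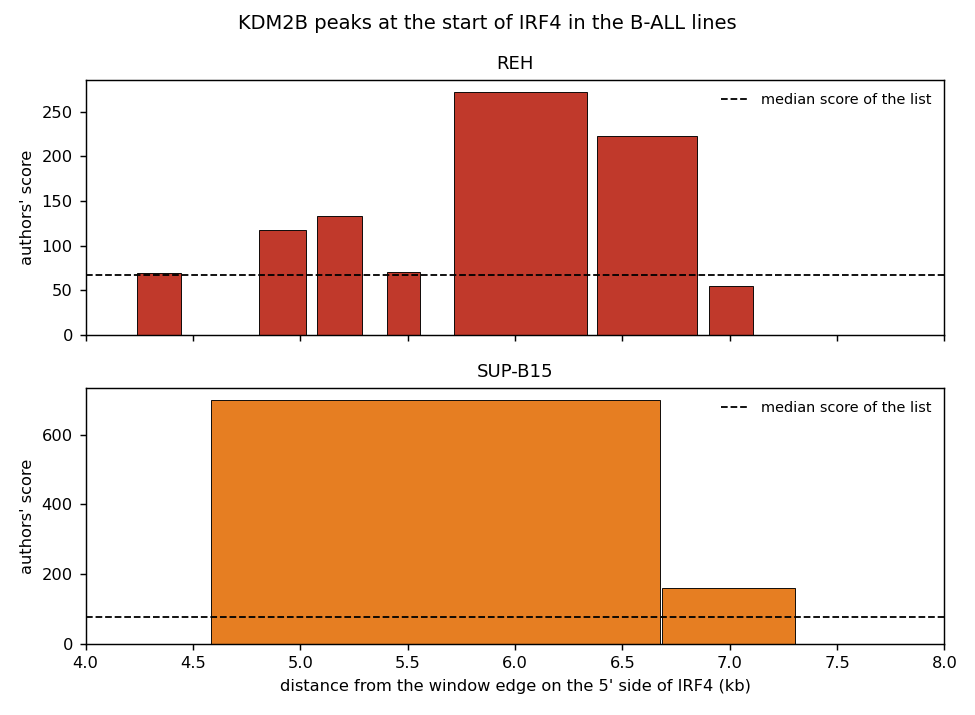
Authors' score (vertical axis, a separate scale for each list) of each KDM2B peak at IRF4 against its position in kb from the 5′ window edge, with bars as wide as the peaks and a dashed line at the median score of the list. The 2 SUP-B15 peaks form a nearly continuous block, and 6 of the 7 REH peaks lie within the same stretch, with the highest score near 6 kb, while the first lies before it.

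None of the other 5 lists had a peak in the IRF4 window. Beyond it, the nearest peak was 9.85 kb from the window in SIL-ALL, and from 93.4 to 94.4 kb away in K562, HPB-ALL, JURKAT and DND41. REH had a peak 94.4 kb away as well, on the same lower-coordinate side. DUSP22 and EXOC2 are the genes next to IRF4 in the RefSeq gene table. SUP-B15 had no peak on that side, and its nearest on the other side was 1189 kb away, so these flanking peaks did not follow the lineages.

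The IRF4 peaks made up 2 merged regions. The larger (391584 to 394306) was bound in REH and SUP-B15 alone, as were 312 of the 29071 merged regions (1.07%), and a small peak upstream of it (391241 to 391446) was in REH alone, as were 8.18% of regions. Of the 2337 regions bound in both B-ALL lines (8.04% of all regions), 13.4% had no peak in another line. Among the 312 the IRF4 region was the widest, at 2723 bp against a median of 507 bp, and stood at rank 2 by mean percentile (98.8 against a median of 56.2). Its width is the span of the SUP-B15 peaks, and the widest REH peak in it was 619 bp. The IRF4 region was picked as strong and bound in the B-ALL lines alone, so its high rank follows from that choice. By the same likeness, a peak in the B-ALL lines alone, the region ranked above it lay on chromosome 17 (17626682 to 17628285; mean percentile 99.3). The 3 ranked next below lay on chromosome 7 (127671228 to 127672884; 97.9), chromosome 21 (44818331 to 44820241; 97.6) and chromosome 19 (50935090 to 50936857; 97.5). All 4 were narrower than the IRF4 region, at 1604 to 1911 bp.

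**Figure D4:**
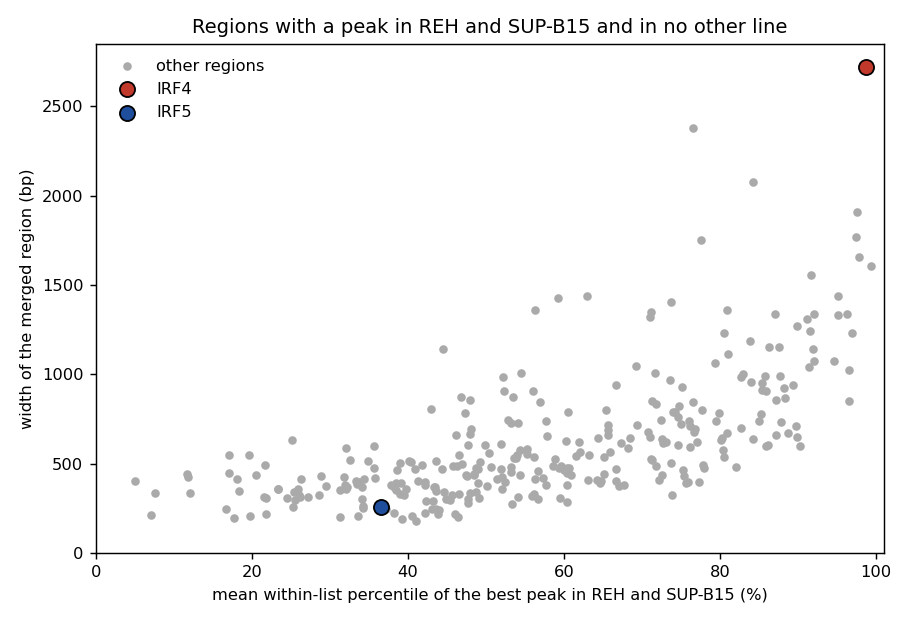
The 312 regions with a peak in REH and SUP-B15 and in no other line, by the percentile of their best peaks, averaged over the 2 lists (horizontal axis), and the width of the merged region in bp (vertical axis). The IRF4 region stands alone at the upper right, with 2723 bp and 98.8, and the IRF5 region lies at 256 bp and 36.5.

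IRF5 had peaks in the B-ALL lines alone too, but low ones. SUP-B15 had peaks at 128578078 to 128578466 (score 81.83, percentile 56.7) and 128578650 to 128578897 (score 76.65, percentile 51.7) on chromosome 7. REH had peaks at 128578734 to 128578905 (score 54.77, percentile 21.4), 128580451 to 128580666 (score 61.07, percentile 38.4) and, near the outer edge of the window, 128573407 to 128573543 (score 50.8, percentile 5.62). In 1 region the lines overlapped, 256 bp wide and at rank 257 of the 312 B-ALL regions by mean percentile. All IRF5 peaks but 1 scored below 80, the lowest score listed in HPB-ALL and SIL-ALL, so an equal score would not have been listed there. JURKAT and K562, with the same lowest score of 50 as the B-ALL lists, had no IRF5 peak either. With the common score floor IRF5 was left with SUP-B15. At IRF4 the same floor left both B-ALL lines.

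IRF8, the nearest relative of IRF4 in the family, was bound in SUP-B15 alone. The 2 peaks lay at 85932056 to 85932298 (score 71.37, percentile 45.5) and 85932358 to 85932949 (score 167.23, percentile 87.6) on chromosome 16, from 4.06 to 4.95 kb from the 5′ edge of the window. Of all merged regions, 5.23% had a peak in SUP-B15 alone. REH, which shares the IRF4 site, had no peak in the IRF8 window, and its nearest peak was 142 kb away. In DND41 the nearest was 25.6 kb away.

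IRF2, the counterpart of IRF1 at interferon-response genes, had peaks near its start in the T-ALL lines and not in the B-ALL lines. All 4 T-ALL lines had peaks at the 5′ end of its window on chromosome 4, and K562 and SUP-B15 had none anywhere in it. The region with the best peaks ran from 185395567 to 185396543 and was bound in the 4 T-ALL lines alone, as were 655 of all merged regions (2.25%). Its best peak scored 519.98 in DND41 (percentile 96.3), 187.72 in JURKAT (88.1), 371.89 in HPB-ALL (88.1) and 82.91 in SIL-ALL (4.95). SIL-ALL thus belonged to this region through a peak close to the lowest score of its list. The SIL-ALL peaks were instead spread over 5 short ones of 138 to 200 bp, the best of which scored 135.43 (percentile 48.6) at 185394176 to 185394356. A run of 5 or more was found in 2.20% of the SIL-ALL runs. Around the main region DND41, HPB-ALL and SIL-ALL had further short peaks in common, in 2 regions further into the gene, and 1.33% of all merged regions had a peak in exactly these 3 lines.

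REH had 1 peak in the IRF2 window, at 185370108 to 185370431 (score 88.97, percentile 73.0), 30.7 kb from the 5′ edge. None of the T-ALL lists had a peak there, so REH did not share the site at the start of the gene. In SUP-B15 the missing IRF2 peak was part of a long empty stretch: its list had no peak on chromosome 4 from 160025434 to 190943855, or 30.9 Mb. The other lists held 18 (K562), 26 (REH), 53 (DND41), 67 (HPB-ALL), 74 (JURKAT) and 57 (SIL-ALL) peaks in that stretch. Copy number was not used here and its part in the SUP-B15 result was not tested.

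IRF1 was the member bound in all lines. Its peaks, apart from a small one of SIL-ALL at the window edge, merged into 1 region of 1753 bp on chromosome 5 (131825370 to 131827122), and 2.44% of all merged regions had a peak of every line. The best peak scored 336.2 in K562 (percentile 93.8), 53.72 in REH (17.4), 84.92 in SUP-B15 (59.9), 187.99 in DND41 (80.7), 307.19 in JURKAT (95.1), 585.17 in HPB-ALL (94.6) and 888.92 in SIL-ALL (96.7). The B-ALL lines thus ranked IRF1 lowest and the T-ALL lines and K562 higher, the opposite order to IRF4. In REH the IRF1 site was 2 short peaks of 170 bp near the lowest score of the list, and with the common floor REH had no IRF1 peak. For K562, a 1309-bp peak at IRF1 was the only one in the 8 windows.

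The IRF1 peaks of the lines did not all cover the same bases. SUP-B15 marked the outer part of the region (131826598 to 131827045), whereas K562, HPB-ALL, JURKAT and SIL-ALL covered a stretch mostly further into the gene, and DND41 and REH had peaks in both parts. SIL-ALL also had a peak of 133 bp that crossed the outer edge of the window (131831915 to 131832047; score 84.23). Just outside that edge, SIL-ALL, JURKAT and SUP-B15 each had a further peak 0.318, 0.583 and 0.649 kb away, which the window leaves out.

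**Figure D5:**
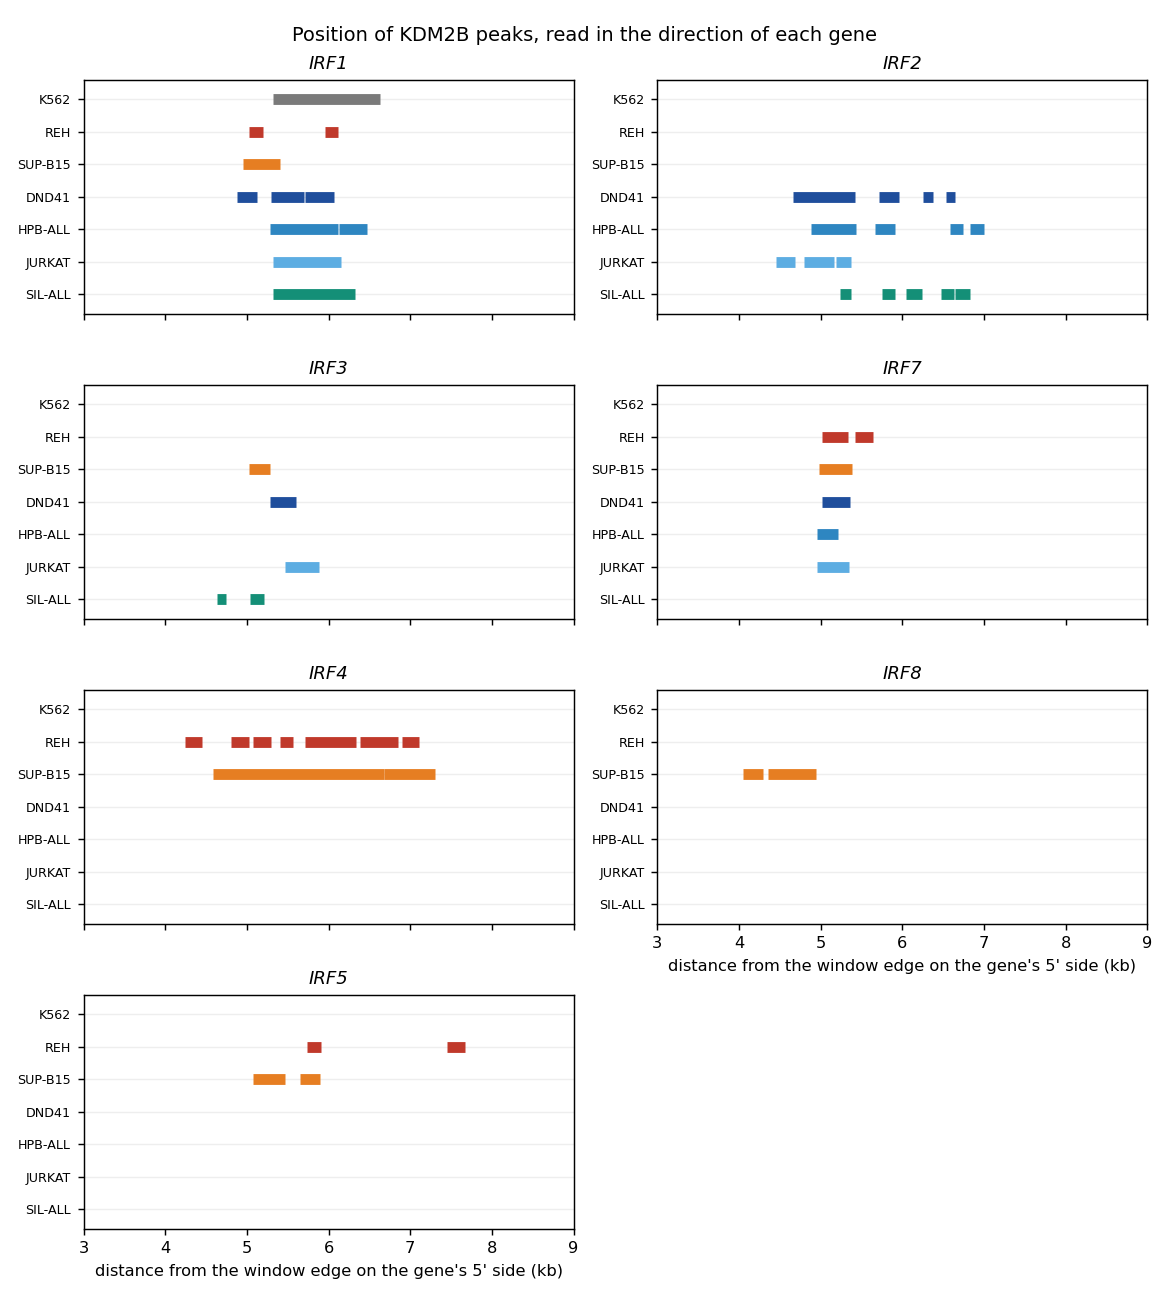
Peaks of each line (rows) at the 7 IRF genes with any peak, as horizontal bars against the distance in kb from the window edge on the gene's 5′ side, shown from 3 to 9 kb. The 3 peaks outside this range are those of SIL-ALL at the edge of the IRF1 window, of REH inside IRF2 and of REH at the edge of the IRF5 window; the rest lie between 4 and 8 kb.

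The inducers of type I interferon, IRF3 and IRF7, had modest peaks without a lineage pattern. IRF7 had overlapping peaks in 5 lines on chromosome 11 (615618 to 616038). The best IRF7 peak scored 99.24 in REH (percentile 78.9), 94.6 in SUP-B15 (66.7), 155.66 in DND41 (74.4), 170.84 in JURKAT (85.5) and 129.92 in HPB-ALL (47.3). Of all merged regions 4.76% had peaks of 5 lines and 0.172% of exactly these 5. No IRF7 peak was wider than 406 bp. SIL-ALL and K562 had none in the window, and their nearest peaks were 32.2 and 32.4 kb away. PHRF1 and CDHR5 are the neighbours of IRF7 in the gene table, and CDHR5 lies on the side of the IRF7 start.

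At IRF3 the lines split over neighbouring regions on chromosome 19, mostly with low peaks: JURKAT alone was left of the 4 lines in the upper 50% of each list by score, and JURKAT and SUP-B15 with equal lists. DND41 (50168403 to 50168717; score 90.11) and JURKAT (50168122 to 50168539; score 152.22) overlapped in 1 region, a pattern of 1.26% of all merged regions. SUP-B15 (50168724 to 50168979; score 61.03) and SIL-ALL (50168793 to 50168966; score 94.88) overlapped in the next (0.451% of all merged regions), and SIL-ALL had another peak beyond it (50169252 to 50169366; score 102.68). The percentiles were 82.4 in JURKAT, 45.0 in DND41, 30.3 in SIL-ALL for its better peak and 28.1 in SUP-B15. The 3 regions together spanned little more than a kilobase, and the region patterns depended on a few bases between adjoining peaks. In the gene table IRF3 overlaps BCL2L12, a BCL2-family gene, so a peak here cannot be given to either of these genes.

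IRF9 had no peak in its window (chromosome 14, 24626001 to 24641000) in any of the 7 lists. The nearest peak was 9.26 kb from the window in SIL-ALL, 14.7 kb in JURKAT, 14.8 kb in HPB-ALL and in DND41, and 15.3 kb in SUP-B15. REH and K562 had none within 61.2 and 75.2 kb. Its neighbours in the gene table are RNF31 and REC8. IRF9 has the CpG-poor promoter of the 3 genes shown. A start inside IRF8 (0.130) and another inside IRF5 (0.188) had lower observed over expected CpG, and both of these genes had peaks. These starts lay 3668 and 4236 bases into their genes. With equal flanks they would fall further in than any peak of those genes. No sequence under a peak was examined, so a link between CpG content and the peaks was not tested. The IRF5 starts nearest its first base, 895 and 1185 bases in, had 0.689 and 0.785.

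Across the members the peaks gathered at 1 place in the windows. Of the 56 peaks, 53 had their midpoint between 4 and 8 kb from the edge on the gene's 5′ side. Adjoining peaks of a list were counted separately, as with the 7 REH peaks at IRF4. The share of all KDM2B peaks that lie near gene starts was not computed, so this is not shown to be particular to the IRF genes. Each window was 8.99 to 10.8 kb longer than the RefSeq span of its gene, and equal flanks would place the first base of each gene 4.50 to 5.42 kb from that edge. The median midpoint was 5.72 kb for IRF1, 5.84 kb for IRF2, 5.15 kb for IRF3, 5.63 kb for IRF4, 5.77 kb for IRF5, 5.18 kb for IRF7 and 4.41 kb for IRF8. The exceptions were the REH peak inside IRF2, at 30.7 kb, and the peaks at the outer edge of the IRF1 window in SIL-ALL and of the IRF5 window in REH. No hg19 gene annotation was used here, so peaks were not assigned to exons or introns.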

How the data were processed

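KDM2B ChIP-seq was measured in 7 cell lines, 1 library each. The series also has 5 input libraries, from K562, REH, SUP-B15, HPB-ALL and SIL-ALL, and none from DND41 or JURKAT. The input libraries were not analysed here. The submitters' processing notes name Bowtie 1.1.1, FastQC 0.10.1 and the build hg19. Peaks carry MACS names; the caller's settings, its control and its threshold are not stated in the labels or files used here. The deposited score of each peak is the authors' value with no stated unit, and it was used to describe, rank or filter peaks within a list. The common score floor is the exception: it set 1 score limit for all 7 lists, although they share no stated scale. Depth is unknown.

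Windows were those of the rule that defines the set, counted from 1, and a peak belonged to a window it overlapped by at least 1 bp. Peaks of all lists were merged as a whole before the windows were read. The members, gene lists and promoter motifs were chosen with earlier results of these data known. All 8 members are named. Strands came from the promoter table, or from background knowledge for IRF2, IRF3 and IRF7. The gene and promoter tables are of GRCh38.p14, and none of their coordinates were used with the peaks. Lengths taken from them, the gene spans and the distances of starts into genes, were set against the hg19 windows and peaks. No protein table was used here, so the planned protein identities were not computed. Merging was tested on simulated lists with a single peak of each line per planted region, so broken or adjoining peaks were not tested. Alternatives were stricter score limits, equal lists, other window edges, midpoints, reciprocal overlap and a merging distance of 500 bp. Computations used Python 3.11.15, numpy 2.4.6, pandas 2.3.3, scipy 1.17.1 and matplotlib 3.10.9.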

Additional observations from a re-analysis of the deposited data

How the results depend on the processing

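Each line has 1 list, so no value has a replicate error. No paired analysis was possible because the lines are single libraries without replicate numbers. Widening the windows by 5 kb, narrowing them by 4 kb and using peak midpoints left the number of windows with a peak unchanged in all 7 lines. When only the upper 50% of each list by score was kept, REH had a peak in 3 windows (5 as deposited) and SIL-ALL in 1 (3 as deposited), and 12 merged regions were left of 22; JURKAT had 4, more than REH. With a common score floor REH had 3 windows, fewer than JURKAT and DND41 with 4 each, and with equal lists of 5942 peaks SIL-ALL had 1. Merging peaks within 500 bp gave 11 regions in the windows, with a single one at IRF4. The share of regions bound in REH and SUP-B15 alone was 0.527% with the common floor and 1.96% with equal lists, against 1.07%. With equal lists the best IRF4 peak of REH stood at percentile 97.4, and the widths of all REH peaks at IRF4 summed to 2090 bp, against 619 bp for the best. The IRF4 window kept peaks in REH and SUP-B15 under every score, list-length, midpoint and window alternative. That no other line appeared is not a test. All of these but widening can only remove peaks, and widening by 5 kb stops short of the nearest peak of another line, 9.85 kb away in SIL-ALL. When 50% reciprocal overlap with the best peak was required, SUP-B15 alone was left at IRF4, since the widest REH peak there is narrower than 50% of the 2092-bp SUP-B15 peak. That requirement also left 4 lines at IRF1, 2 at IRF2 and 1 each at IRF3 and IRF5. At IRF3 the upper 50% of each list left 1 line (JURKAT) of 4 and equal lists left 2 (JURKAT and SUP-B15), and at IRF5 the upper 50% and the common floor each left SUP-B15 alone.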
